A study of Mus musculus with 8 samples.

Results

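The kainate receptor subunit genes Grik1, Grik2, Grik3, Grik4 and Grik5 encode GluK1 to GluK5, and all 5 were chosen by gene symbol from the 25834 genes of the deposited table. All 5 had enough reads to be tested, among 16251 genes tested in all. The hippocampus of 1 hemisphere was taken from each of 8 male mice, 4 of them control and 4 SAP97-cKO, and 1 RNA library was sequenced per mouse. SAP97-cKO mice carried Nestin-cre together with 2 floxed copies of SAP97 (Dlg1), while the control littermates carried Nestin-cre without the floxed pair, the floxed pair without Cre, or neither. Nestin-cre acts in neural progenitors, so that neurons and glia that derive from them share the deletion. Which control genotype each library came from, and the age of the mice used for RNA, were not given in the sources used here. Since control genotypes were averaged, an effect of Cre alone cannot be told apart from the deletion here.

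Kainate receptors are glutamate-gated cation channels made of 4 subunits. GluK1, GluK2 and GluK3 can form channels by themselves, whereas GluK4 and GluK5, which bind kainate with high affinity, reach the surface as working channels only together with one of the former. In the hippocampus these receptors are best known from the synapses of dentate granule cell mossy fibers on CA3 pyramidal cells, where they act on both sides of the synapse, and from interneurons. The auxiliary subunits Neto1 and Neto2 slow their gating, and the tail of GluK2 binds the PDZ domains of Dlg-MAGUK scaffolds, the family to which SAP97 belongs.

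The coding sequences around the pore are shown because they hold the codon at which GluK1 and GluK2 transcripts are edited, a feature that a gene-level count does not resolve. In each line the codon of the pore-loop glutamine, called the Q/R site, is in capitals, with 12 coding bases on each side, 5′ to 3′ on the coding strand, from the annotated transcript with the longest coding sequence (GENCODE M21, GRCm38).
Grik1: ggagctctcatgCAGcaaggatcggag
Grik2: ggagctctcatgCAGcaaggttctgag
Grik3: ggctccctgatgCAGcaaggatctgaa
Grik4: ggaggcttcatgCAGcaaggctccact
Grik5: ggtggcttcatgCAGcagggctcggag
All 5 genes carry the same CAG codon in the reference genome. The Grik1 and Grik2 windows differed from each other at 2 of 27 bases, and the Grik3 and Grik4 windows, the least alike, at 10. The codon lies at chr16:87940542-87940544 in exon 13 of 18 of Grik1 and at chr10:49244329-49244331 in exon 12 of 16 of Grik2. In Grik3 it lies at chr4:125691207-125691209 in exon 12 of 16, in Grik4 at chr9:42547623-42547625 in exon 14 of 19 and in Grik5 at chr7:25022497-25022499 in exon 15 of 20. Editing at this codon was not analysed here.

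The ends of the Grik1 and Grik2 coding sequences are shown because they encode the PDZ-binding tails of the long isoforms. The last 4 codons before the stop codon are in capitals.
Grik1 tail: cgaactcagagaaaaGAGACTGTGGCG
Grik2 tail: aggttgccaggtaaaGAAACCATGGCA
The Grik1 tail codons lie at chr16:87896199-87896210 and the Grik2 tail codons at chr10:49101111-49101122, each in the last exon of its gene. The counts cover all annotated isoforms of a gene together, 11 annotated transcripts each for Grik1 and Grik2, so isoforms with and without this tail were not told apart.

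The members lie on 5 chromosomes. Grik1 is on the minus strand of chromosome 16 (GRCm38, 87895900 to 88290265), the chromosome that also holds Dlg1 (31663443 to 31875129), at a distance of 56 Mb. Grik2 (chromosome 10, 49094833 to 49788766), Grik4 (chromosome 9, 42518135 to 42944493) and Grik5 (chromosome 7, 25009849 to 25072346) are also on the minus strand, and Grik3 (chromosome 4, 125490700 to 125714173) is on the plus strand. No annotated gene overlaps a member on the opposite strand, while 6 overlap Grik2, 2 overlap Grik3 and 2 overlap Grik4 on the same strand. The start of each gene also differed in base composition. In RefSeq promoter windows of 300 bases (GRCm38.p6, 250 bases before to 50 after the start), which held 4 of the 5 members, Grik3 had 50 CG dinucleotides and Grik4 had 42, counts reached by 0.855% and 3.03% of 32851 promoters. Grik2 had 26 (16.9% of promoters reached this) and Grik5 had 10 (43.5%), where the median promoter had 7. Grik1 had no entry.

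Library totals ran from 37388177 to 37426572 counts. None of the 28 pairs of libraries agreed within sampling noise (chi-square of 9.68 to 72.6 per gene), so all 8 were kept as separate samples. Values are CPM, the counts of a gene relative to the TMM-scaled total of its library, and n is 4 mice per group throughout. Dlg1, the targeted gene, had 110, 122, 107 and 125 CPM in control replicates 1 to 4 and 62.9, 82.0, 57.3 and 53.7 CPM in SAP97-cKO replicates 1 to 4, so that each SAP97-cKO library was below each control library (log2 fold change -0.86, standard error 0.12, adjusted p = 0.143 from edgeR). Leaving out 1 library ended this call in 3 fits, with an adjusted p from edgeR of 0.424 when control replicate 2 was dropped, 0.524 when SAP97-cKO replicate 3 was dropped and 0.346 when SAP97-cKO replicate 4 was dropped. In each of these 3 fits 0 of all genes tested passed, so the loss of the call was not particular to Dlg1. Dlg1 had log2 fold changes of -0.83, -0.80 and -0.78 in them (unadjusted p = 0.00016, 0.000212 and 0.000127 from edgeR). The count covers the whole gene and not the deleted exon alone. All genes of 15 marker lists were detected in every library, among them the lists for hippocampal CA1, CA2, CA3 and dentate granule cells, and for no list did the summed levels of the groups separate.

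SAP97-cKO replicate 2 stood apart from the other libraries in its dentate and cortex markers. Its 5 dentate granule cell markers summed to 149 CPM against 252 to 439 CPM in the other 7 libraries, and its 4 cortex markers summed to 161 CPM against 107 to 124 CPM. Each of the dentate markers, Prox1, Dsp, Lct, Tdo2 and C1ql2, was lowest in this library, at 0.268 to 0.478 of the median of the other 7. Of the cortex markers, Cux2 was at 2.19 and Lamp5 at 1.45 of that median, while Fezf2 was inside the range of the others. The members are therefore given with and without this library where it moves them. Over all genes, control replicate 4 was the library least like the others, with a chi-square of 58.2 to 72.6 per gene in its pairs. Without control replicate 4, the log2 fold changes (SAP97-cKO over control) of Grik1 to Grik5 were 0.16, 0.13, 0.24, 0.17 and 0.28.

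Grik5 had the highest level of the family and Grik1 the lowest. Per kilobase of merged annotated exons, Grik5 was at 36.7 ± 2.95 CPM per kb in controls and 45.5 ± 3.38 in SAP97-cKO (SD, n = 4 each). Grik4 followed with 8.32 ± 1.33 and 9.87 ± 2.81 CPM per kb, and Grik3 with 6.42 ± 0.488 and 7.72 ± 1.86. Thus the high-affinity subunit GluK5 had by far the most transcript, at 3.81 to 5.76 times the level of Grik4 within a library. Grik2 had 4.04 ± 0.395 and 4.54 ± 0.217 CPM per kb, and Grik1 had 1.27 ± 0.120 and 1.46 ± 0.171. Grik5 was above Grik4, Grik3 above Grik2 and Grik2 above Grik1 in 8 of 8 libraries, with ranges that did not overlap. Grik4 and Grik3 did not separate. Grik4 was the higher of the pair in 7 libraries, and Grik3 was the higher in SAP97-cKO replicate 2.

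**Figure D1:**
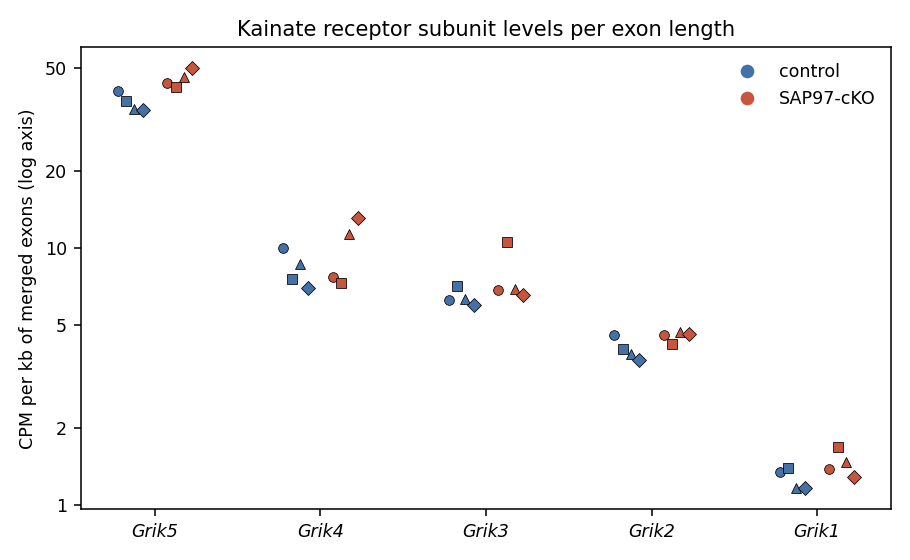
Level of each kainate receptor subunit gene in every library, as CPM per kb of merged exons on a log axis, with control libraries in blue and SAP97-cKO libraries in red (circle, square, triangle and diamond mark replicates 1 to 4). Grik5 lies between 34.2 and 49.9 in all libraries and Grik1 between 1.16 and 1.69.

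The length used for Grik2 set its place next to Grik3. The annotation merges 13246 bases of Grik2 exons, of which 8819 lie within the gene span of the deposited table. With the shorter length, Grik2 was at 6.06 ± 0.594 CPM per kb (SD, n = 4) in controls and 6.81 ± 0.326 in SAP97-cKO, close to Grik3, which was then above Grik2 in 4 of 8 libraries. The places of Grik5 and Grik1 were the same with this length and with that of the longest transcript.

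In the comparison of genotypes, all 5 members had log2 fold changes above 0 (SAP97-cKO over control), from 0.17 to 0.31 with a median of 0.25, and 0 of 5 passed the FDR of 0.25 that the study uses (edgeR's quasi-likelihood test, Benjamini-Hochberg adjustment over all genes tested). Among all genes tested, 0.295% passed this threshold, 47.2% had a log2 fold change above 0, and the median was -0.01. At an unadjusted p under 0.05, Grik5 was the 1 member past the line, where 4.73% of all genes tested were past it in the higher direction. Limma-voom called 0 of 5, with 0.308% of all genes past the threshold. DESeq2 called 1 of 5, which was Grik5, and 5.97% of all genes with an adjusted p.

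Grik5 showed the clearest difference. It had 210, 193, 180 and 177 CPM in control replicates 1 to 4 and 225, 218, 239 and 258 CPM in SAP97-cKO replicates 1 to 4. Every SAP97-cKO library was thus above every control library, as was the case for 2.78% of all genes tested. The means were 190 ± 15.2 CPM in controls and 235 ± 17.5 CPM in SAP97-cKO (SD, n = 4 each), a ratio of 1.24. On the log2 scale this was 0.31 (standard error 0.079, unadjusted p = 0.00294, adjusted p = 0.316 from edgeR), which placed Grik5 at rank 140 of 16251 genes by p. An exact permutation test (two-sided) gave p = 0.0286, the minimum for groups of 4. Grik5 did not pass the FDR of 0.25 in edgeR, and single libraries decided on which side it fell. Its adjusted p from edgeR was 0.179 with control replicate 1 left out and 0.210 with SAP97-cKO replicate 1 left out. In these fits 10.2% and 4.32% of all genes passed, against 0.295% with all libraries. The highest adjusted p over the 8 fits was 0.695, without SAP97-cKO replicate 4. In that fit 0 of all genes tested passed, and Grik5 had a log2 fold change of 0.26 (unadjusted p = 0.0102 from edgeR). With DESeq2 the log2 fold change of Grik5 was 0.31 with an adjusted p of 0.0449.

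Marker sums also differed between the groups in part, though none separated them. The 4 CA1 markers, all with a log2 fold change above 0, summed to 342 to 441 CPM in controls and 391 to 533 CPM in SAP97-cKO, with a median log2 fold change of 0.30, about that of Grik5. The lists for other hippocampal cells had lower medians, of -0.25 for CA2 (1 of 4 above 0), -0.10 for CA3 (2 of 5) and -0.0007 for dentate granule cells (2 of 5). The dentate value includes SAP97-cKO replicate 2, where these markers summed to 149 CPM. Their sums were 439, 381 and 330 CPM in SAP97-cKO replicates 1, 3 and 4, and 252 to 371 CPM in controls. Of the 5 genes in the excitatory neuron list, which includes the general neuronal genes Rbfox3 and Snap25, 4 were above 0. This list summed to 8223 to 8964 CPM in controls and 8751 to 10341 CPM in SAP97-cKO. In bulk tissue, more cells of a type and more RNA per cell cannot be told apart. Other lists had lower values in SAP97-cKO. The 6 oligodendrocyte markers (0 above 0) summed to 5261 to 8487 CPM in controls and 4081 to 7428 CPM in SAP97-cKO, and the 7 choroid plexus markers (0 above 0, median log2 fold change -1.48) to 168 to 6696 CPM and 94.4 to 2306 CPM. The 8 meningeal fibroblast markers summed to 227 to 429 CPM and 147 to 240 CPM, with 4 past the FDR of 0.25 in edgeR, all lower in SAP97-cKO, where 0.295% of all genes tested passed. The part of these cell types in the Grik5 difference was not tested.

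**Figure D2:**
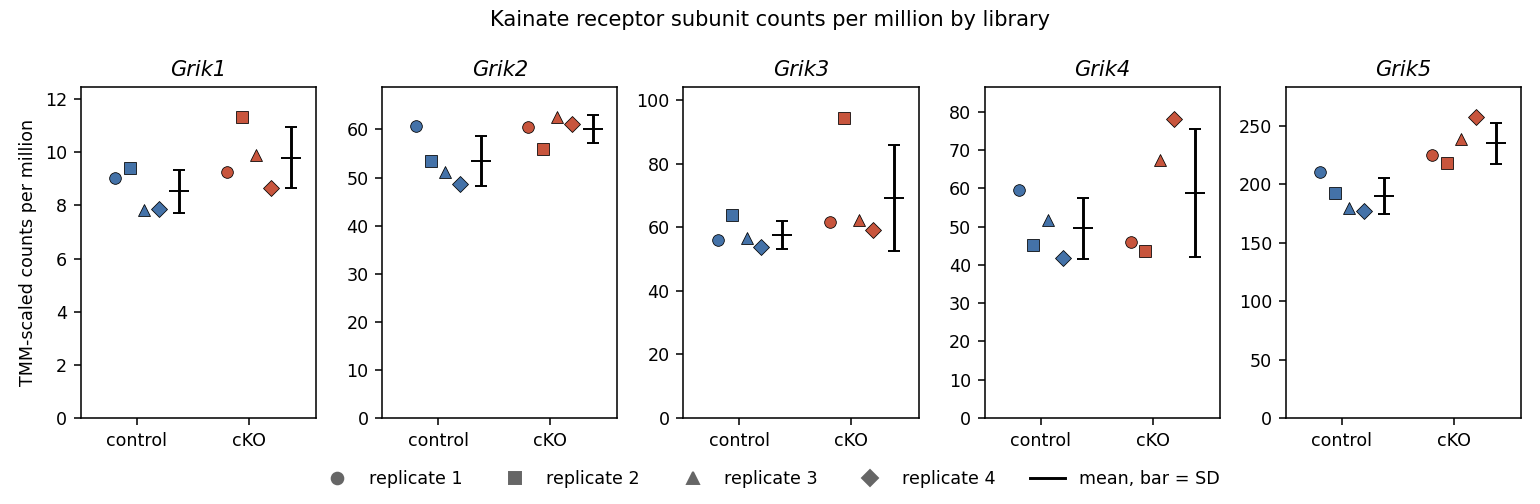
CPM after TMM scaling of each member in the 4 control and 4 SAP97-cKO libraries, with the marker shape giving the replicate, and the group mean with its SD beside the points. The groups separate for Grik5, with 177 to 210 CPM in controls and 218 to 258 CPM in SAP97-cKO, and overlap for the other 4 genes.

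The start of Grik5 is shown because this gene had the smallest p of the family. In the RefSeq window at chr7:25072320-25072619 (GRCm38.p6, minus strand, printed 5′ to 3′ as transcribed), matches to GGGCGG on either strand, the core of an Sp1 site, are in capitals.
Grik5 promoter: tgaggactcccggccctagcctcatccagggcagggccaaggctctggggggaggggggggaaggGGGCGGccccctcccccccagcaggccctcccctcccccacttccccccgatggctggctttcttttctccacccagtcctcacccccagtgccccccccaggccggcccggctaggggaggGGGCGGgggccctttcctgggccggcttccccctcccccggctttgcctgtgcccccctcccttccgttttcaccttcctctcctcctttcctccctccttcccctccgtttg
The Grik5 window held 2 such matches, the Grik4 window 2, the Grik3 window 7 and the Grik2 window 0, and 35.7% of the 32851 promoter windows held at least 1. The matches are a description of these letters and not of binding.

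Grik4, the other high-affinity subunit, had the widest spread of the family. It had 59.7, 45.1, 51.8 and 41.7 CPM in control replicates 1 to 4 and 46.0, 43.7, 67.4 and 78.2 CPM in SAP97-cKO replicates 1 to 4. Replicates 3 and 4 of SAP97-cKO were above all controls, while replicates 1 and 2 were inside the control range. The coefficient of variation was 28.4% in SAP97-cKO and 16.0% in controls, against 7.43% and 8.02% for Grik5. Grik4 had a log2 fold change of 0.25 (with a standard error of 0.19 and adjusted p = 0.596 from edgeR). This was 0.08 when SAP97-cKO replicate 4 was left out and 0.37 when SAP97-cKO replicate 2 was left out. The CA3 markers, which mark the pyramidal cells best known for Grik4, summed to 162 to 189 CPM in controls and 152 to 189 CPM in SAP97-cKO. Their sum was highest in replicate 4 among SAP97-cKO libraries, as was Grik4, and in replicate 3 among controls, where Grik4 was highest in replicate 1. The part of CA3 cells in the spread of Grik4 was not tested.

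Among the subunits that form channels by themselves, Grik2 encodes GluK2, the principal subunit at mossy fiber synapses. It had 60.7, 53.5, 51.1 and 48.6 CPM in control replicates 1 to 4 and 60.6, 55.9, 62.5 and 61.2 CPM in SAP97-cKO replicates 1 to 4. Control replicate 1 lay among the SAP97-cKO libraries, and the other 3 controls were below all of these. Its log2 fold change of 0.17 had a standard error of 0.078 (adjusted p = 0.433 from edgeR). Without control replicate 1 it was 0.24 and past the threshold (adjusted p = 0.199 from edgeR), as were 10.2% of all genes in that fit, and in the other 7 fits with 1 library left out it was not.

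Grik3 encodes GluK3, a subunit of low agonist sensitivity. It had 56.1, 63.9, 56.6 and 53.7 CPM in control replicates 1 to 4 and 61.6, 94.3, 62.2 and 59.1 CPM in SAP97-cKO replicates 1 to 4. The SAP97-cKO mean rested on replicate 2, and the other 3 libraries were inside the control range. With this library the log2 fold change was 0.27 (SE 0.14, adjusted p = 0.474 from edgeR) and without it 0.08 (adjusted p = 0.667 from edgeR), and the SAP97-cKO mean went from 69.3 ± 16.7 CPM (SD, n = 4) to 61.0 ± 1.64 CPM (SD, n = 3), beside 57.6 ± 4.38 CPM (SD, n = 4) in controls. This is the library with low dentate and high cortex markers. Their part in its Grik3 level was not tested.

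Grik1, a subunit known from hippocampal interneurons, had 9.02, 9.41, 7.82 and 7.86 CPM in control replicates 1 to 4 and 9.26, 11.3, 9.89 and 8.66 CPM in SAP97-cKO replicates 1 to 4. It rested on 301 to 426 counts per library, the fewest of the family, and its groups overlapped. Grik1 had a log2 fold change of 0.20 (with a standard error of 0.12 and adjusted p = 0.505 from edgeR), or of 0.12 without SAP97-cKO replicate 2, the library with the highest value. The 9 interneuron markers summed to 1358 to 1491 CPM in controls and 1245 to 1514 CPM in SAP97-cKO.

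**Figure D3:**
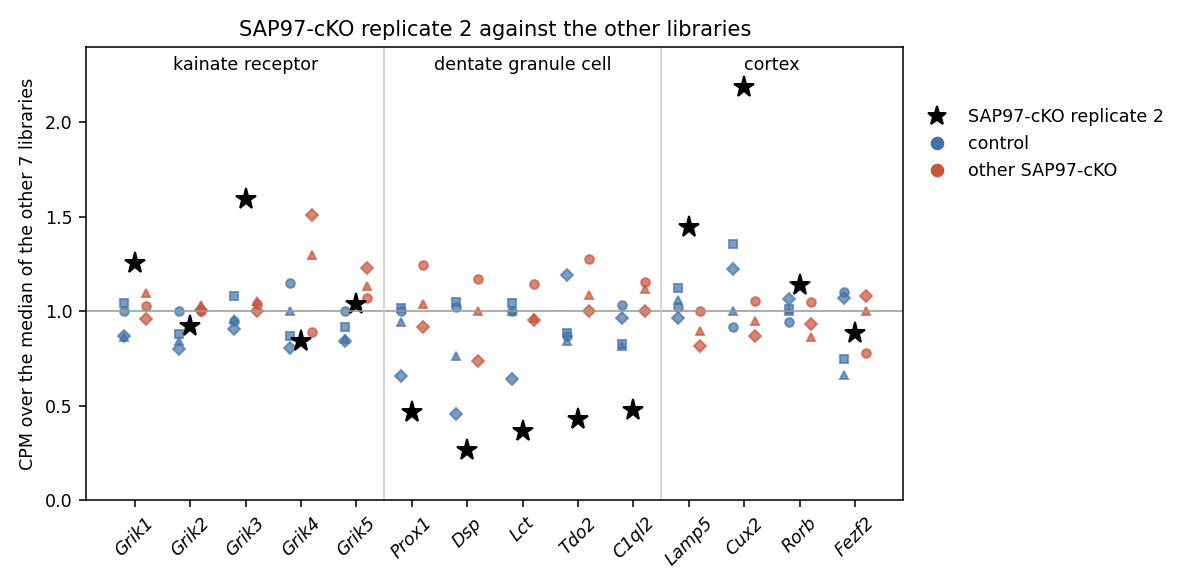
CPM of each gene in every library divided by the median of the 7 libraries other than SAP97-cKO replicate 2, which is drawn as a star, for the 5 members, 5 dentate granule cell markers and 4 cortex markers. The star is at 1.59 for Grik3 and 1.26 for Grik1, below 0.48 for all dentate markers, and inside the range of the others for Grik2, Grik4 and Grik5.

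Whether the make-up of the family differed between genotypes was asked with shares, which do not depend on scaling between libraries. Each subunit's level per kb was divided by the sum over the 5 genes of the same library. All merged exons were used. With exons within the deposited gene span, Grik2 was at 6.06 rather than 4.04 CPM per kb in controls. Its share is then larger, and those of Grik3, Grik4 and Grik5 are smaller. The differences (SAP97-cKO minus control) were then -0.724 points for Grik2 and 0.862 for Grik4 and Grik5 together, beside -0.518 and 0.681 with merged exons. Grik5 made up 64.7% ± 0.975 of kainate receptor transcripts in controls and 65.9% ± 1.65 in SAP97-cKO (SD, n = 4 each), and Grik4 14.6% ± 1.5 and 14.1% ± 3.02. The share of Grik3 was 11.3% ± 1.01 and 11.3% ± 3.19, that of Grik2 7.10% ± 0.128 and 6.58% ± 0.434, and that of Grik1 2.24% ± 0.145 and 2.12% ± 0.348. The high-affinity subunits together held 79.3% ± 1.01 and 80.0% ± 3.55. Without SAP97-cKO replicate 2, their SAP97-cKO share was 81.6% ± 1.73 (SD, n = 3) and that of Grik3 9.75% ± 0.991 (SD, n = 3), so that the difference from controls went from 0.681 to 2.31 percentage points for the former and from -0.05 to -1.59 for Grik3. Without SAP97-cKO replicate 4 these differences were -0.47 and 0.805. Exact two-sided permutation tests gave an unadjusted p from 0.114 for Grik2 to 0.971 for Grik3 (adjusted over the 6 shares, 0.686 to 0.971). A single differing share could not have gone below an adjusted p of 0.171 in this exact test, so these values do not show that the make-up was alike. The share of Grik2 was 7.02% to 7.29% in controls and 6.12% to 7.14% in SAP97-cKO, with SAP97-cKO replicates 2, 3 and 4 below all controls and replicate 1 among them. SAP97-cKO libraries spread more than controls in each of the 6 shares, a difference in spread that was not tested.

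**Figure D4:**
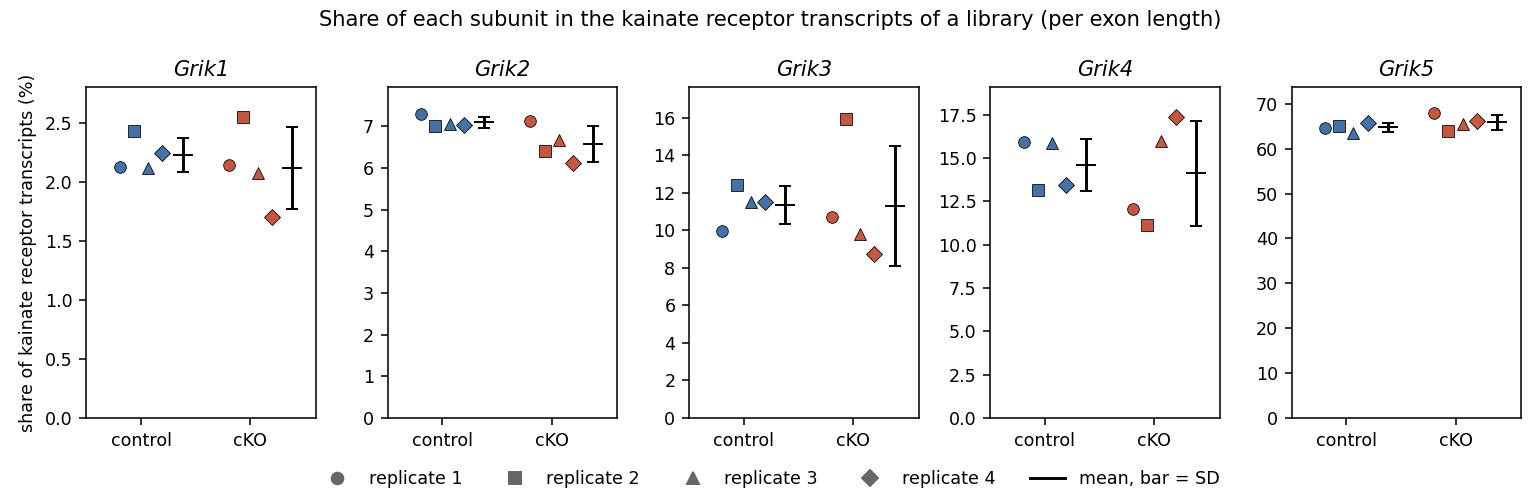
Share of each subunit in the summed level per kb of the 5 kainate receptor genes, in percent, for each library, with group means and SD. Grik5 lies between 63.4% and 68.0% in all libraries, and Grik3 reaches 15.9% in SAP97-cKO replicate 2 against 8.72% to 12.4% in the others.

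The auxiliary subunit Neto1 had 109, 85.5, 78.0 and 83.2 CPM in control replicates 1 to 4 and 80.0, 97.9, 113 and 133 CPM in SAP97-cKO replicates 1 to 4. Neto1, Grik4 and Grik5 had their highest and second highest SAP97-cKO values in the same libraries, replicates 4 and 3, and their highest control value in replicate 1. These libraries were also alike over all genes. The chi-square per gene was 9.68 for control replicate 1 with SAP97-cKO replicate 3 and 9.83 for SAP97-cKO replicates 3 and 4, the lowest among the 28 pairs. A link between the 3 genes was not tested. Neto1 had a log2 fold change of 0.25 (with a standard error of 0.15 and adjusted p = 0.524 from edgeR), which was 0.13 when SAP97-cKO replicate 4 was left out. Neto2 had 53.9 to 60.4 CPM in controls and 58.7 to 65.2 CPM in SAP97-cKO (log2 fold change 0.09, standard error 0.066, adjusted p = 0.589 from edgeR). The groups overlapped for both genes.

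C1ql2 and C1ql3 encode secreted proteins of mossy fiber terminals that gather kainate receptors on the opposite side of the synapse. C1ql2, which is also one of the dentate markers above, had 80.6, 64.5, 63.8 and 75.5 CPM in control replicates 1 to 4 and 90.1, 37.3, 87.3 and 78.0 CPM in SAP97-cKO replicates 1 to 4. SAP97-cKO replicate 2 was far below the rest, in the library where Grik3 was highest. C1ql2 had a log2 fold change of 0.04 (with a standard error of 0.23 and adjusted p = 0.953 from edgeR), whose sign changed with the processing, and of 0.26 (adjusted p = 0.396 from edgeR) without that library. C1ql3 was at 56.7 to 76.5 CPM in controls and 62.2 to 72.4 CPM in SAP97-cKO (log2 fold change 0.08, standard error 0.100, adjusted p = 0.767 from edgeR).

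Among 22 partner genes other than Dlg1 (auxiliary subunits, C1q-like organisers, PDZ and scaffold partners, turnover, transport and SUMO partners, and RNA editing enzymes), all were tested, 17 had a log2 fold change above 0 and 0 passed the FDR of 0.25 in edgeR, with a median of 0.08. DESeq2 called 2 of them, Dlg4 (adjusted p = 0.110) and Dlg2 (adjusted p = 0.212), where it called 5.97% of all genes with an adjusted p. At an unadjusted p under 0.05, 3 were past the line, all in the higher direction, where 4.73% of all genes were. A log2 fold change above 0 was seen for 47.2% of all genes tested. Dlg4, which encodes the scaffold PSD-95, had 680 to 750 CPM in controls and 766 to 866 CPM in SAP97-cKO, without overlap (log2 fold change 0.21, standard error 0.072, adjusted p = 0.358 from edgeR). Dlg2, which encodes PSD-93, had 358 to 412 CPM and 408 to 466 CPM (log2 fold change 0.19, standard error 0.073, adjusted p = 0.376 from edgeR). Kif17, a dendritic kinesin that carries GluK2, had 15.1 to 17.5 CPM and 17.9 to 20.1 CPM, also without overlap (log2 fold change 0.22, standard error 0.082, adjusted p = 0.376 from edgeR). Such a separation in the higher direction was seen for 2.78% of all genes tested. The editing enzymes Adar, Adarb1 and Adarb2 had log2 fold changes from 0.01 to 0.19, and 0 of the 3 had an unadjusted p under 0.05. The 8 turnover, transport and SUMO partners had a median of -0.01, with 3 above 0 and 5 below.

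The other ionotropic glutamate receptor genes gave values close to those of the kainate receptor genes. Of 12 genes examined (AMPA and NMDA receptor subunits and Grid1), 11 were tested, 10 had a log2 fold change above 0, 0 passed the FDR of 0.25 in edgeR and the median was 0.27, beside 0.25 for the 5 members. DESeq2 called 2, Grid1 (adjusted p = 0.0318) and Grin1 (adjusted p = 0.246), where it called 5.97% of all genes with an adjusted p. Grin3b, with 67 counts over all libraries, was not tested. The 4 AMPA receptor genes had a median of 0.17, from -0.26 for Gria4 to 0.27 for Gria3, and the 6 NMDA receptor genes tested a median of 0.28, from 0.11 for Grin2c to 0.48 for Grin2b. The Grin2b value leaned on control replicate 4, at 245 CPM. The other controls were at 550 to 698 CPM and SAP97-cKO libraries at 612 to 823 CPM. At an unadjusted p under 0.05 were Gria3 (adjusted p = 0.414 from edgeR), Grin1, the obligatory NMDA receptor subunit (log2 fold change 0.28, adjusted p = 0.386 from edgeR) and Grid1, the delta-1 subunit (log2 fold change 0.27, adjusted p = 0.297 from edgeR), all higher. Of all genes tested, 4.73% were past this line in the higher direction, and 47.2% had a log2 fold change above 0. Without control replicate 4, the log2 fold change was 0.16 for Gria3, 0.19 for Grin1 and 0.27 for Grid1. Grid1 had 67.9 to 78.2 CPM in controls and 84.1 to 92.9 CPM in SAP97-cKO and was the 1 gene of these 12 whose groups did not overlap. Of all genes tested, 2.78% were higher in SAP97-cKO without overlap. Whether the kainate receptor genes differ from these families in their response was not tested. By unadjusted p Grid1 ranked at 94 and Grik5 at 140 among all genes tested.

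**Figure D5:**
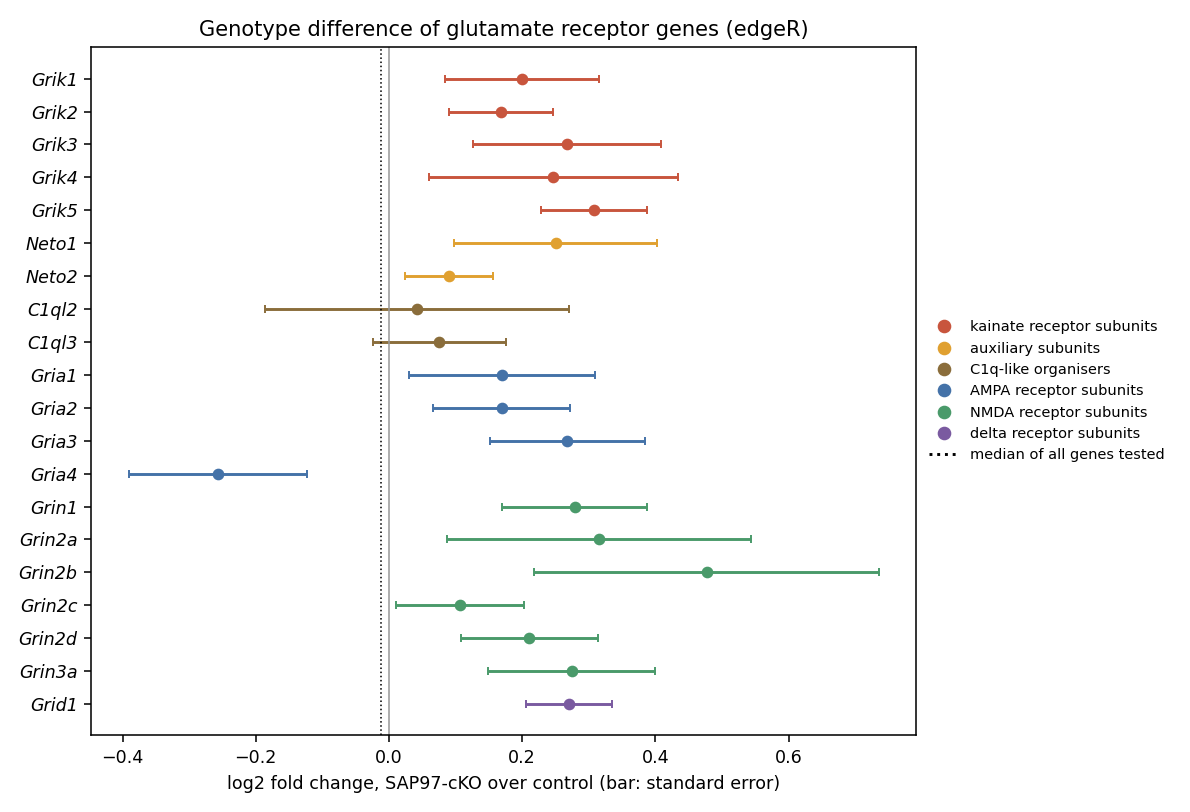
Log2 fold change from edgeR (SAP97-cKO over control) with its standard error for the kainate receptor subunits, their auxiliary subunits and C1q-like organisers, the AMPA and NMDA receptor subunits tested, and Grid1. The dotted line is the median of all genes tested, and of the genes drawn Gria4 alone, at -0.26, lies to the left of 0.

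For each member, the genes whose log2 CPM followed it most closely over the 8 libraries, after the mean of each group was removed, were found among 14065 other genes with at least 1 CPM on average. Values are Pearson's r over 8 libraries, given as a description, since the highest of so many over so few libraries is always high and the libraries share their dissection and make-up. For Grik5 they were Arf3 (0.988), Gng2 (0.983) and Lrfn5 (0.983), and for Grik4 Tada2b (0.992), Lrp11 (0.989) and Mapk8ip2 (0.988). For Grik3 they were Osbpl10 (0.996), Srp54b (0.985) and Prkg2 (0.982), where SAP97-cKO replicate 2 is the extreme point. For Grik2 they were Mamld1 (0.980), Dnajc21 (0.980) and Med24 (0.978), and for Grik1 Thrb (0.989), Tmem64 (0.976) and Col12a1 (0.973).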

How the data were processed

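RNA-seq libraries came from the hippocampi of 8 male mice, 4 per group. STAR 2.5.3a was the aligner of the authors and mm10 (GRCm38.p5) their genome. Their PORT pipeline took out reads from ribosomal and mitochondrial sequence, brought all libraries to 1 depth by resampling and counted on Ensembl genes. The deposited values are whole-number counts per gene, and whether strand was used in counting is not stated in the methods or labels. The log2 fold changes, p-values and q-values of the authors' own comparison were not used.

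edgeR 4.0.16 (R 4.3.3) was used for the filter on low counts (filterByExpr with a minimum count of 10 and a minimum total of 15), TMM scaling and the quasi-likelihood test, fitted on all 16251 genes left, with Benjamini-Hochberg adjustment and a threshold of 0.25. The standard error is the log2 fold change divided by the square root of F. Exact two-sided permutation tests used the 70 assignments of 8 libraries. Levels per kb used exons of GENCODE M21 (25696 of 25834 identifiers matched). P-values rest on the spread between these mice. The fits were tested on simulated counts. Alternatives were limma-voom (limma 3.58.1), DESeq2 1.42.0, its size factors in edgeR, no scaling, no filter, 10 counts in every library, a robust fit, an FDR of 0.05, the replicate number as a block, the longest transcript or no length, and leaving out each library, while exons within the span of the deposited table were added after seeing the data. Protein sequences were not used here, and 1 gene of the lists is not reported here.

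The named genes are Dlg1, the members, Neto1, Neto2, C1ql2 and C1ql3, genes of the partner and receptor lists at an unadjusted p under 0.05, and the 3 genes most like each member. Gria4, Grin2b, Grin2c, Grin3b, the editing enzymes and the marker genes named one by one were named after their values were seen. The members and lists were chosen with earlier results of these data known.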

Additional observations from a re-analysis of the deposited data

Results flagged for a closer look

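Within groups of 4 libraries, a value was picked out when its gap to the nearest other value, as a part of the range of the group, was over Dixon's critical value, which chance gives in about 5% of groups. Of 62 groups examined, 8 gave such a value. In SAP97-cKO replicate 2, Grik3 was at 94.3 CPM (the others 59.1 to 62.2) and the summed cortex markers at 161 CPM (107 to 111). In control replicate 4, Neto2 was at 53.9 CPM (60.0 to 60.4) and the summed microglia markers at 258 CPM (203 to 212). The share of Grik2 in control replicate 1 was 7.29% (7.02% to 7.05%). In SAP97-cKO replicate 1 the summed astrocyte markers were at 5792 CPM (4690 to 4800) and the summed oligodendrocyte markers at 7428 CPM (4081 to 4444), and in control replicate 2 the summed oligodendrocyte precursor markers were at 166 CPM (148 to 150.0).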

How the results depend on the processing

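The log2 fold changes of the 5 members stayed above 0 in every alternative run, and 3 settings put a member past the FDR of 0.25 (DESeq2, and edgeR without control replicate 1 or without SAP97-cKO replicate 1). The number of members past it was 0 in edgeR and 1 in DESeq2 (Grik5, log2 fold change 0.31), and 0 to 2 over the fits without 1 library. Over these fits, Grik5 ran from 0.26 to 0.36 and Grik2 from 0.13 to 0.24. The differences in share (SAP97-cKO minus control, percentage points) changed sign for Grik3 without division by length (0.0029, from -0.05), and without 1 library they ran from -1.59 to 0.805 for Grik3, from -1.55 to 0.537 for Grik4 (the extremes being without SAP97-cKO replicate 2 or 4), from -0.256 to 0.0276 for Grik1 and from -0.47 to 2.31 for Grik4 and Grik5 together. C1ql2 changed sign with limma-voom (-0.0322), without scaling (-0.0071) and with the replicate block (-0.0260), and ran from -0.0674 to 0.261 without 1 library. The cause was not tested.

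The replicate numbers do not mark pairs in the labels, and the deviations of same-numbered libraries correlated at -0.11, 0.24, 0.12 and 0.30 across genes. Control replicate 1 correlated best with SAP97-cKO replicate 4 (0.36). With the replicate number as a block, 0 members were past the threshold and Grik5 was at 0.31 (adjusted p = 0.358 from edgeR), and sign flips over 4 pairs cannot give a p under 0.125. The number of all genes past an FDR of 0.25 was 48 in edgeR, 943 in DESeq2, 95 without scaling, 104 without a filter and 256 with the block, and ran from 0 to 1675 over the fits without 1 library.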
